A study of Mus musculus with 2 samples.

Results

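Toll-like receptors (TLRs) were examined by RNA sequencing of mouse peritoneal macrophages, either nontreated (NT) or given interleukin-4 (IL-4), a cytokine of Th2 immunity under which macrophages polarize to the alternative (M2) state. The 10 receptor genes Tlr1 to Tlr9 and Tlr13 were taken by gene symbol from 15623 genes listed in 1 or both libraries. All 10 were listed in the NT library and 9 were listed in both. Both groups were wild-type C57BL/6 cells from mice of 6 to 8 weeks (an age given in the study's methods) injected with 4% thioglycolate, an irritant that draws macrophages into the peritoneal cavity, with lavage 4 to 5 days later. The cells adhered for 4 h, were starved in 0.5% serum, and were either NT or given mouse IL-4 for 6 h. Each group held 1 library, so no difference below was checked against a spread between replicates. The labels give no sex and no number of pooled animals, and 1 label field names bone marrow as the tissue where another names peritoneal macrophages.

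TLRs are membrane receptors that recognise conserved parts of microbes through leucine-rich repeats and signal through an intracellular TIR domain. Those at the cell surface, Tlr1, Tlr2, Tlr4, Tlr5 and Tlr6, detect bacterial lipids and proteins, whereas Tlr3, Tlr7, Tlr8, Tlr9 and Tlr13 reside in endosomes and detect nucleic acids. All of them except Tlr3 signal through the adaptor Myd88, and Tlr3 and internalised Tlr4 use Ticam1 (TRIF). Macrophages use these receptors to sense infection, and their activation drives the classical (M1) program to which IL-4 stimulation is the usual counterpart.

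The libraries held 11035641 (NT) and 11250099 (IL-4) expected counts, the reads that the authors' quantifier assigned to genes. The floor of detection, taken as 3 counts, was 0.272 CPM (counts scaled to the library total) in NT cells and 0.267 CPM in IL-4 cells. All 9 macrophage markers examined, including Adgre1, Csf1r, Cd68 and Lyz2, were present, with at least 147 counts in each library, and Csf1r (6236 and 11896 counts) was among those called higher. The 5 B-cell markers, from cells that also use Tlr7 and Tlr9, summed to 106 counts in NT cells and 97 in IL-4 cells, and Pax5 had at most 1 count. Of 8 dendritic-cell markers, Siglech was not listed in either library and Flt3 had 1 count in each, while Bst2, which macrophages also express, held most of the list's 740 and 1055 counts. The 7 T- and NK-cell markers summed to 28.3 and 13.2 counts, the 5 mast-cell markers to 60 and 37, the 8 granulocyte markers to 88 and 49, and the 7 stromal, mesothelial and fat markers to 1039 and 923. Of all these other markers, Adipoq (0 and 139 counts) was called higher, Msln (12 and 2) and Siglecf (53 and 27) were called lower, and Ly6g, Mpo and Trac were not listed. Their part in the results below was not tested. In bulk RNA, fewer cells of a type and less RNA per cell cannot be told apart.

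The TLRs did not move together upon IL-4 stimulation. Tlr8 rose to become by far the most abundant TLR transcript, Tlr13 and Tlr2 fell about equally, Tlr9 fell from a low level, and Tlr1, Tlr3, Tlr4, Tlr6 and Tlr7 were not called. Calls used the study's own limits for this comparison, a log2 ratio (IL-4 over NT) of 0.75 or more in size with p up to 0.05 and a Benjamini-Hochberg adjusted value up to 0.5, here from an exact binomial test. By this rule 1 of the 10 TLRs was higher and 3 were lower. Across all 15593 genes tested, 10.4% were called, 4.07% as higher and 6.28% as lower, and 27.5% were past the ratio limit without regard to p. The median log2 ratio of the 9 TLRs above the floor was -0.05, beside -0.03 over all genes tested. This test compares the reads of 2 libraries and not the conditions. When a coefficient of variation of 0.4 between samples was assumed, in the edgeR exact test, none of the TLRs was called and 3 of them had an unadjusted p below 0.05. Intervals below are 95% exact intervals. They cover counting error only, since each group held 1 library, and they are too narrow where reads are PCR copies of 1 molecule.

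**Figure D1:**
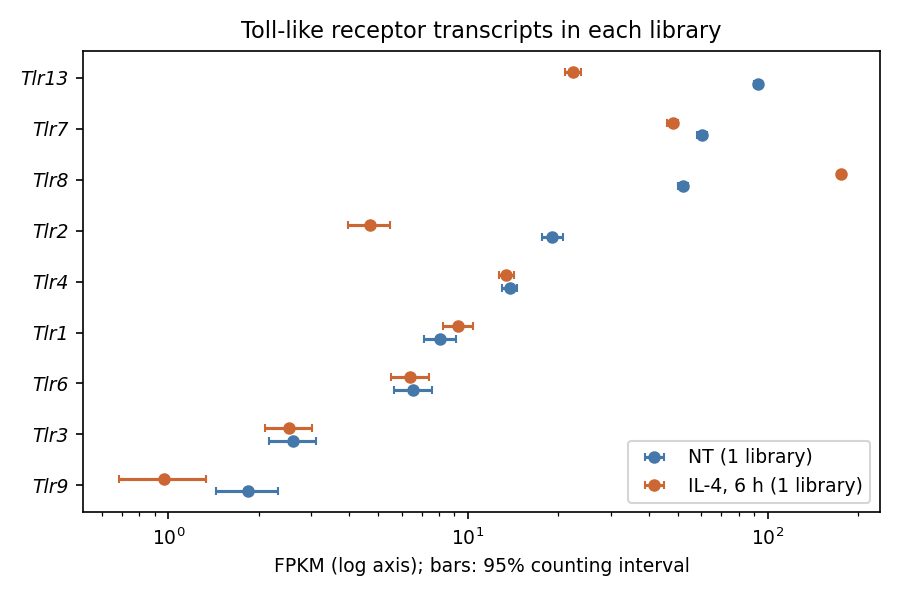
Transcript level (FPKM, log axis) of each TLR in the NT library and the IL-4 library, with bars for the 95% Poisson counting interval and 1 library per group. Tlr8 moved from 52.05 to 175.47 FPKM while Tlr13 moved from 92.98 to 22.37 and Tlr2 from 19.1 to 4.7. Tlr5, with 1 count in all, is not drawn.

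IL-4 acts through the transcription factor Stat6, whose sites resemble TTC and GAA with 4 bases between them. The promoters were searched for this Stat6 motif, for the STAT motif with 3 bases between TTC and GAA, and for GAGGAA, the box bound by the macrophage factor PU.1, on both strands. RefSeq windows of 250 bases before a transcript start (GRCm38.p6) were at hand for 8 of the 10 members, in 10 windows. Of these, 1 window held the Stat6 motif, beside 5.85% of 32851 windows of all genes. The STAT motif stood in 2 windows, of Tlr8 and Tlr1 (7.02% of all windows) and GAGGAA in 4 (23.3%). The Tlr1 window with the STAT motif lies wholly inside the annotated gene, as do the windows of Tlr3 and Tlr6. The promoters shown are those of Tlr8, the receptor that rose, and of Tlr9 and Tlr13, which fell, each 5′ to 3′ on the strand of the gene, with matches in capitals.
Tlr8: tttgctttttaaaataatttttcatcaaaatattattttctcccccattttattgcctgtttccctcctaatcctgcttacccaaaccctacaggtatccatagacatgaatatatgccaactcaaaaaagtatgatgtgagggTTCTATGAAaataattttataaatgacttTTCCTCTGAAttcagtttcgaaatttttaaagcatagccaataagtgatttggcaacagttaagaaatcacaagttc
Tlr9: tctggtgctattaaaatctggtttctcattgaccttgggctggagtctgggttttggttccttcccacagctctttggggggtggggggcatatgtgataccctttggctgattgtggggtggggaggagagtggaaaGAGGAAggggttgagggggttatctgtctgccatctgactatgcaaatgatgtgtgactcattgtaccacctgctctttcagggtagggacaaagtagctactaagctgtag
Tlr13: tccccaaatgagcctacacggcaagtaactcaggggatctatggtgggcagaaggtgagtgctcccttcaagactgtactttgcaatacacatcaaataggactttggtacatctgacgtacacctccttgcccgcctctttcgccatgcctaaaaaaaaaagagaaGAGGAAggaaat
The Tlr8 window, chrX:167264330-167264579 on the minus strand, held TTCTATGAA from 106 to 98 bases before the start and TTCCTCTGAA from 77 to 68 bases before it. The first is the STAT motif and the second the Stat6 motif, whose first letters also form GAGGAA on the other strand, from 77 to 72. The start used was 167264329, where GENCODE begins a Tlr8 transcript of 485 exonic bases. GENCODE begins the Tlr8 transcript of 3 exons at 167264286, so these distances are not those from its start. The Tlr9 window was chr9:106222348-106222597, and the Tlr13 stretch was chrX:106143025-106143203, both on the plus strand. Each held GAGGAA and neither STAT motif. The rest of the Tlr13 window was left out because GENCODE places it inside the gene. The Tlr2 window on chromosome 3 held none of the 3 motifs, but only 34 of its bases lie outside the gene. A match is a description of letters and not a binding site, and absence from a window says nothing of the factor.

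Tlr8 (gene 170744) lies on chromosome X from 167241123 to 167264329 (GRCm38), and its main transcript has 3 exons, of which 2 are coding. It is the closest relative of the single-stranded RNA receptor Tlr7. It had 2824 expected counts in NT cells and 9692 in IL-4 cells. In FPKM, which is scaled for transcript length and library size, this was 52.05 and 175.47. The counting intervals of these levels, 50.1 to 54.0 and 172 to 179, were far apart. The log2 ratio was 1.75 (interval, 1.69 to 1.81), or 3.37-fold. Of the 15593 genes tested, 533 (3.42%) had a ratio at least as high. By FPKM, Tlr8 stood at rank 1319 among genes of the NT library and at rank 415 in the IL-4 library. Set against 200 genes of similar transcript length, by subtracting their median, its log2 ratio was 1.93.

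Tlr7 (gene 170743), the receptor for single-stranded RNA, lies next to Tlr8 on the same chromosome, from 167303380 to 167330574. A gap of 39051 bases separates them. Tlr7 had 2562 counts (60.3 FPKM) in NT cells and 2087 (48.11 FPKM) in IL-4 cells. Its log2 ratio was -0.32 (interval, -0.41 to -0.24). That interval left out 0 but did not reach the threshold, so Tlr7 was not called. In NT cells the level of Tlr8 was 0.863 times that of Tlr7, and in IL-4 cells it was 3.65 times. This change in the ratio of the neighbours was 4.21-fold, with an exact conditional interval from 3.92 to 4.53, and a ratio within a library does not depend on how the libraries are scaled. The levels themselves rest on deposited lengths, for Tlr8 in NT cells 4864.96 bases where GENCODE gives 3431 exonic bases. Which of Tlr7 and Tlr8 was higher in NT cells is therefore not settled. The genes on either side of the pair were not called. Tmsb4x, on the side of Tlr8, had 14151 and 14161 counts, and Prps2, on the side of Tlr7, had a log2 ratio of 0.10. Tlr8 was thus the 1 gene of these 4 neighbours that was called.

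Tlr13 (gene 279572), the mouse receptor for bacterial ribosomal RNA, was the most abundant TLR transcript in NT cells. The gene lies on chromosome X from 106143275 to 106160493. It had 4156 counts (92.98 FPKM) in NT cells and 1020 (22.37 FPKM) in IL-4 cells. The log2 ratio was -2.05 (interval, -2.15 to -1.96), a level 4.15 times as high in NT cells as in IL-4 cells. Of all genes tested, 3.05% had a ratio as low or lower. Its neighbours Atp7a and Pgk1 had log2 ratios of -0.42 and 0.52 and were not called. Against Tlr7 in the same library, Tlr13 went from 1.54 to 0.465 times its level. The ratio of Tlr8 to Tlr13 was 0.560 in NT cells and 7.84 in IL-4 cells, a 14.0-fold change with an interval from 12.9 to 15.2.

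Tlr9 (gene 81897, chromosome 9, 106222598 to 106226876), which recognises unmethylated CpG DNA, was scarce. It had 71 counts (1.84 FPKM) in NT cells and 38 (0.97 FPKM) in IL-4 cells. Its log2 ratio of -0.92 was called lower (exact binomial test, adjusted value 0.00589), but the interval from -1.54 to -0.34 included the threshold. B cells are rich in Tlr9, and the B-cell markers given above summed to 9.61 CPM in NT cells and 8.62 CPM in IL-4 cells, where Tlr9 itself was at 6.43 and 3.38 CPM. Their part in the difference was not tested. The call was lost when a coefficient of variation of 0.2 between samples was assumed in the edgeR exact test (adjusted value 0.829).

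Tlr3 (gene 142980, chromosome 8, 45395665 to 45411075), the receptor for double-stranded RNA and the member that signals through Ticam1 alone, was at 126 counts (2.61 FPKM) in NT cells and 124 (2.52 FPKM) in IL-4 cells. Its log2 ratio was -0.05 (interval, -0.42 to 0.32). Of the 5 endosomal receptors, then, 1 was higher, 2 were lower and 2 were not called. Their summed level was 209.78 FPKM in NT cells and 249.44 FPKM in IL-4 cells, a sum that combines the opposite changes of Tlr8 and Tlr13.

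**Figure D2:**
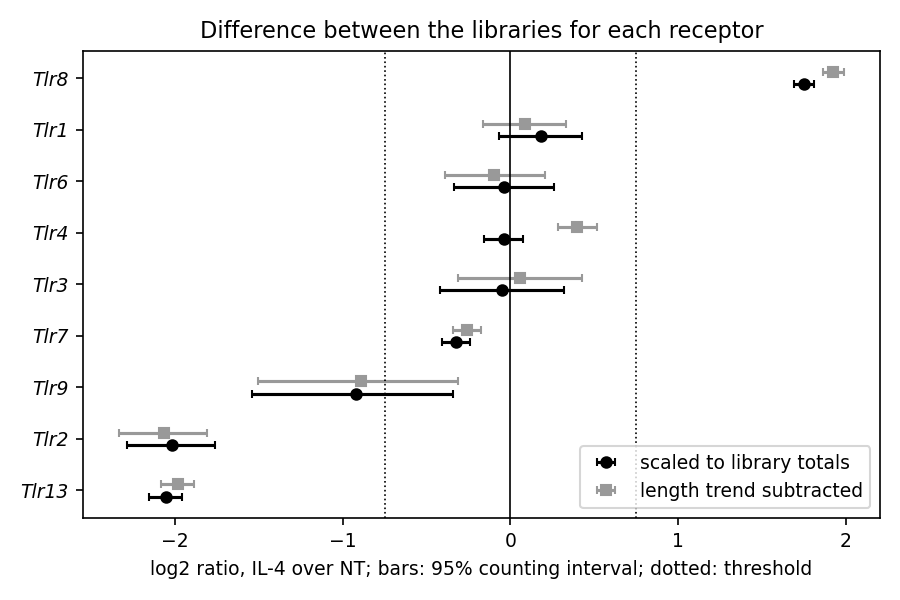
Log2 ratio of IL-4 over NT for the 9 TLRs above the floor, scaled to library totals (circles) or with the trend over transcript length subtracted (squares), with 95% counting intervals and dotted lines at the threshold of 0.75 in size. Tlr8 stands at 1.75, Tlr2 and Tlr13 stand at -2.02 and -2.05, and Tlr4 shifts from -0.04 to 0.40 with length.

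Among the surface receptors, Tlr2 alone was called. Tlr2 (gene 24088) lies on chromosome 3 from 83836272 to 83841824, and its coding sequence occupies 1 of 3 exons. It recognises bacterial lipoproteins, always with a partner, which is Tlr1 for triacylated and Tlr6 for diacylated forms. Tlr2 had 609 counts (19.1 FPKM) in NT cells and 153 (4.7 FPKM) in IL-4 cells. The log2 ratio was -2.02 (interval, -2.29 to -1.76), a level 4.05 times as high in NT cells as in IL-4 cells. Of all genes tested, 3.08% had a ratio as low or lower. Tlr2 and Tlr13 fell by similar amounts, since the change in the ratio of the one to the other was 1.02-fold, with an interval from 0.841 to 1.24.

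The partners of Tlr2 were not called. Tlr1 (gene 21897, chromosome 5, 64924680 to 64933600) had 251.74 counts (8.07 FPKM) in NT cells and 291.08 (9.27 FPKM) in IL-4 cells, a log2 ratio of 0.18 (interval, -0.07 to 0.43). Tlr6 (gene 21899, chromosome 5, 64953092 to 64970942) had 189.26 counts (6.57 FPKM) and 187.92 (6.4 FPKM), a log2 ratio of -0.04 (interval, -0.33 to 0.26). Tlr2 therefore exceeded both partners in NT cells, at 2.37 times the level of Tlr1 and 2.91 times that of Tlr6. In IL-4 cells its FPKM was below both, at 0.507 and 0.734 times their levels. These levels rest on the deposited lengths, 2874 bases for Tlr2 and 2600 for Tlr6. GENCODE gives their transcripts 3014 and 3677 exonic bases, so the order of Tlr2 and Tlr6 in IL-4 cells is not settled. The change of Tlr2 against Tlr1 was 0.218-fold, with an interval from 0.169 to 0.280, and that against Tlr6 was 0.253-fold, with an interval from 0.191 to 0.334.

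Tlr1 and Tlr6 are adjacent genes that share sequence. Their transcripts had 603 words of 31 bases in common, which was 19.5% of those of Tlr1 and 16.6% of those of Tlr6, whereas neither shared a word with any other member. The authors' quantifier divided such reads between them, and the separate values are therefore less certain than the sum. Summed, they had 441 counts in NT cells and 479 in IL-4 cells, both whole numbers. The log2 ratio of the sum was 0.09, with an interval from -0.10 to 0.28, and the sum, like each gene alone, was not called. The annotated span of Tlr6 also overlaps Fam114a1 (187 and 251 counts, not called), and an antisense gene overlaps Tlr3. Whether counting used strand is not given in the sources used here.

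Tlr4 (gene 21898, chromosome 4, 66827551 to 66846581), the receptor for lipopolysaccharide, had 1217 counts (13.79 FPKM) in NT cells and 1207 (13.41 FPKM) in IL-4 cells. Its log2 ratio was -0.04 (interval, -0.16 to 0.08). That interval covered both signs, so no direction was set before transcript length was taken into account. The deposited length was 7891 bases, and genes of similar length had a median log2 ratio of -0.44. With this subtracted, Tlr4 stood at 0.40, with a counting interval from 0.28 to 0.51, still not called. The interval leaves out the error of that median. GENCODE gives the Tlr4 transcript 4077 exonic bases, and for Tlr13, listed at 4014 bases, the median was -0.07. The value of 0.40 therefore depends on the length taken. Tlr5 (gene 53791, chromosome 1, 182954752 to 182976044), the flagellin receptor, had 1 count in NT cells and was not listed for IL-4 cells. Both values were under the floor of 3 counts, so no fold is given and a difference was not detectable at this depth.

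In NT cells the order by FPKM was Tlr13, Tlr7, Tlr8, Tlr2, Tlr4, Tlr1, Tlr6, Tlr3, Tlr9 and Tlr5. The counting intervals of Tlr1 and Tlr6 overlapped, as did those of Tlr3 and Tlr9, and no other neighbours in the order did. In IL-4 cells the order was Tlr8, Tlr7, Tlr13, Tlr4, Tlr1, Tlr6, Tlr2, Tlr3 and Tlr9, with no overlap between neighbours, although Tlr6 and Tlr2 were separated only by 5.52 against 5.51 FPKM at the ends of their intervals. By these levels the position of Tlr2 moved from the fourth to the seventh. The levels rest on deposited lengths, which for some genes are far from the exonic bases in GENCODE. For Tlr4 these were 7891 and 4077, for Tlr6 2600 and 3677, and for Tlr8 in NT cells 4864.96 and 3431. The places of Tlr4 against Tlr2 and Tlr13, of Tlr8 against Tlr7 in NT cells, and other places close together are therefore not settled. The summed level of the family was 257.34 FPKM in NT cells and 283.22 FPKM in IL-4 cells, a ratio of 1.10. Without Tlr8, the sum was 205.29 FPKM and 107.75 FPKM, a ratio of 0.525. Tlr8 made up 20.2% of the summed FPKM in NT cells and 62.0% in IL-4 cells, and Tlr13 made up 36.1% and 7.90%. The surface receptors together made up 18.5% and 11.9%.

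**Figure D3:**
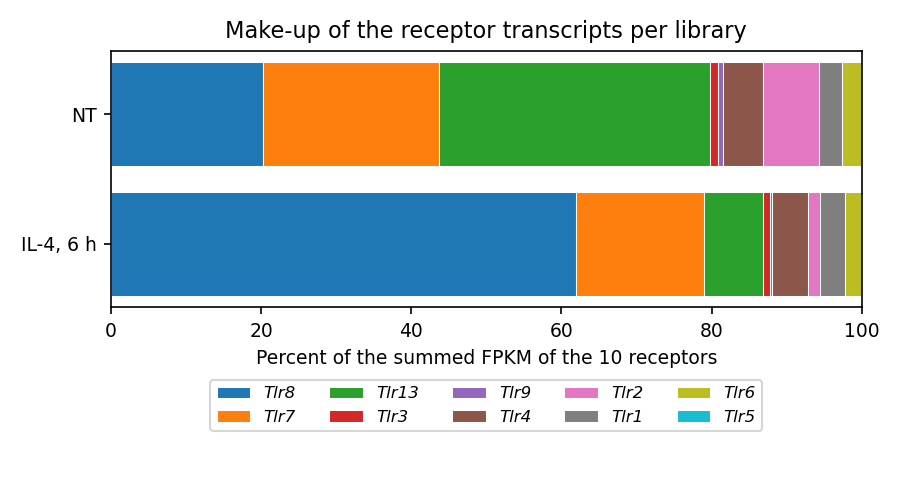
Share of each TLR in the summed FPKM of the 10 receptors, for the NT library and the IL-4 library (1 library each). The Tlr8 segment widens from 20.2% to 62.0% and the Tlr13 segment narrows from 36.1% to 7.90%.

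The genes that the receptors work with were read from 6 lists of pathway genes. Over 109 tested genes of these lists, 9 were higher and 10 were lower, 17.4% in all beside 10.4% of all genes, and their median log2 ratio was -0.13. Most pathway genes were therefore not called. By list, the share called was 22.7% of accessory genes, 14.3% of adaptors, 12% of signalling genes and 12.5% of inhibitors. It was 26.1% of response genes and 12.5% of other TIR receptors.

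Accessory and trafficking genes included both surface co-receptors and the endosomal machinery. Of 22 tested, 2 were higher, 3 were lower and 17 were not called. Their median log2 ratio was -0.00 (0.035 under TMM scaling and -0.11 with the length trend subtracted). Cd14, which hands lipopolysaccharide and lipopeptides to Tlr4 and Tlr2, fell from 1219 to 591 counts (log2 ratio -1.07; interval, -1.22 to -0.93). Ly96 (MD-2), which binds lipopolysaccharide beside Tlr4, had 150 and 149 counts. Cd180, a TLR-like protein that restrains Tlr4 in macrophages, fell from 2795 to 1316 counts (log2 ratio -1.11). Thus the co-receptor Cd14 was lower while Tlr4 and Ly96 were not called. Rab7b, a small GTPase that promotes the lysosomal degradation of Tlr4 and Tlr9, fell from 5589 to 2265 counts (log2 ratio -1.33).

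Unc93b1 carries the endosomal receptors from the endoplasmic reticulum and had 4803 and 4370 counts, a log2 ratio of -0.16 that was not called. Ctsl, a cathepsin that cleaves endosomal receptors into their active form, rose from 25528.3 to 48849.3 counts (log2 ratio 0.91). Ctss, another such cathepsin and the most abundant gene of the list by FPKM (Ctsb had more counts), had a log2 ratio of 0.12. Cd36, a scavenger receptor that assists Tlr2 and Tlr6, rose from 18386 to 31898 counts. Its log2 ratio of 0.77 had an interval from 0.74 to 0.79 that included the threshold, and it was not called when the 100 most abundant genes were left out of the totals.

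Of 7 adaptors, 1 was higher and 6 were not called, with a median log2 ratio of -0.30. Scimp, a transmembrane adaptor of TLRs in macrophages, rose from 12 to 202 counts (log2 ratio 3.99; interval, 3.21 to 5.02). Myd88 had 609 and 519 counts, a log2 ratio of -0.26, and Tirap, which bridges Myd88 to Tlr2 and Tlr4, had 311.04 and 203.85 counts, a log2 ratio of -0.64. The adaptors of the other branch were not called either, with log2 ratios of 0.21 for Ticam1 and -0.30 for Ticam2. The cytosolic adaptor Pik3ap1, which links TLRs to phosphoinositide 3-kinase, was the most abundant of the list by mean FPKM and had a log2 ratio of -0.53.

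Of 25 signalling genes, 3 were lower and none was higher, with a median log2 ratio of -0.19. The share called was 12%, close to the 10.4% of all genes tested (4.07% higher and 6.28% lower). Peli2, an E3 ligase that acts on Irak proteins, fell from 350 to 144 counts (log2 ratio -1.31). Traf3, which serves the interferon branch, fell from 443 to 256 counts (log2 ratio -0.82), but it has a long transcript and stood at -0.38 once genes of similar length were taken into account. The kinase Irak2 (873.53 and 528.02 counts) was called lower at -0.75, at the edge of the threshold, and was not called under TMM scaling (-0.72). Irf5, a transcription factor downstream of Myd88, was the most abundant of the list by mean FPKM and had a log2 ratio of -0.20.

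Of 24 genes listed as inhibitors, 3 were higher and none was lower, 12.5% called beside 10.4% of all genes tested. Their median log2 ratio was -0.05, or 0.084 after the length adjustment. Cd180 and Rab7b, which act against TLRs as described above, were counted with the accessory genes and were called lower (-1.11 and -1.33). These counts therefore depend on how the lists were drawn. Socs1, which restrains cytokine and TLR signalling, rose from 11 to 355 counts (log2 ratio 4.92; interval, 4.13 to 6.00). Atf3, a transcriptional repressor of TLR response genes, rose from 4981 to 10192 counts (log2 ratio 1.01). Lrrc32, known mainly as a carrier of latent TGF-β, rose from 83 to 198 counts (log2 ratio 1.22). It is counted here only because it was on the list, and a part in restraining TLRs was not tested. Lilrb4a, an inhibitory receptor of myeloid cells and the most abundant of the list by FPKM in both libraries, had a log2 ratio of -0.13.

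Response genes, which TLR signalling induces, were mostly scarce. Of 23 tested, 2 were higher, 4 were lower and 17 were not called, and 10 of the 23 had at least 50 counts in 1 library. Tnf fell from 99 to 44 counts (log2 ratio -1.19), Ccl4 fell from 103 to 48, a log2 ratio of -1.12, and Ccl3 fell from 518 to 307, a log2 ratio of -0.78 (-0.74 and not called under TMM scaling). The chemokine gene Ccl2 rose from 39 to 198 counts (log2 ratio 2.30), and the co-stimulatory receptor gene Cd40 rose from 14 to 82, a log2 ratio of 2.48. Saa3 was the most abundant by FPKM, at 3918 and 3885 counts, and was not called. The fourth gene called lower, Cxcl1, had 47 and 15 counts and was named after its values were seen.

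Of 8 tested genes among other receptors with a TIR domain and the TLRs outside the 10, 1 was higher and 7 were not called, and 3 of the 8 had at least 50 counts in 1 library. The median log2 ratio was -0.80 over all 8, 0.43 over those with at least 10 counts in 1 library and -0.042 on FPKM plus 1, so the list has no settled direction. Il1rl2, a subunit of the IL-36 receptor, rose from 53 to 155 counts (log2 ratio 1.51). By FPKM it stood at 2.46 in NT cells, against 2.73 for Il1rap, the shared IL-1 receptor subunit. In IL-4 cells the levels were 7.07 against 3.88. The NT levels rest on 53 and 125 counts and were not given intervals, so their order is not settled. Tlr11 had 2 and 1 counts and Tlr12 had 1 count in NT cells, so both were under the floor.

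**Figure D4:**
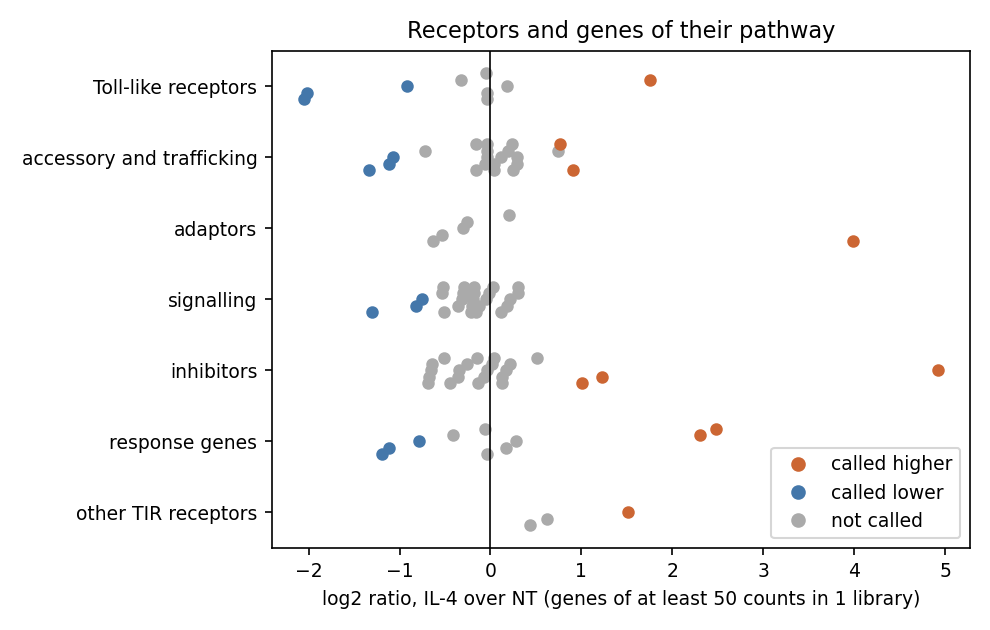
Log2 ratio of IL-4 over NT for TLRs and for genes of 6 pathway lists with at least 50 counts in 1 library (1 point per gene, 1 library per group), coloured by call. Most points lie near 0. The TLR row spans -2.05 to 1.75, and Socs1 (4.92) and Scimp (3.99) lie farthest to the right.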

How the data were processed

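Total RNA, cleaned up with a column kit, was sequenced by BGI on the HiSeq platform. Bowtie was used by the authors to align reads (GRCm38/mm10) and RSEM to estimate gene abundance, with versions not given in the sources used here. The deposited expected counts are RSEM estimates, not scaled for depth, and the deposited FPKM values are scaled by the authors for length and assigned fragments. The deposited length column was used only for length checks. Whether counting used strand is not given in the sources used here. A gene absent from a table was set to 0 (lowest FPKM listed, 0.01). RefSeq (GRCm38.p6) gave symbols for 15587 of 15623 genes and the coordinates, and GENCODE release M21 gave exons.

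Groups came from the sample titles, and the labelled replicates were 1 per group. Log2 ratios used counts scaled to library totals with 0.5 count added. For the test, counts were rounded and 30 genes at 0 in both libraries were left out. An exact two-sided conditional binomial test was applied to the other 15593 genes, with Benjamini-Hochberg adjustment, and intervals were Clopper-Pearson (ratios), Poisson (levels) or conditional exact (odds ratios between 2 members). No model with replicates could be fitted. Alternatives were 3 other scalings, other added constants, other thresholds, a count filter, a length correction, and an assumed coefficient of variation in the exact test of edgeR.

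The members and lists were chosen with earlier results of these data known. Named genes are the 10 members and, per pathway list, up to 6 called genes with at least 50 counts and the largest ratios, the most abundant gene by mean FPKM, and Ly96, Cd14, Unc93b1, Myd88, Ticam1, Ticam2 and Tirap. Of 114 entries in the pathway lists, 113 were matched and 109 tested. Ctss was in both the accessory and macrophage lists. The values of a macrophage marker are not reported here. Python 3.11.15, scipy 1.17.1, R 4.3.3, edgeR 4.0.16 and DESeq2 1.42.0 were used.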

Additional observations from a re-analysis of the deposited data

How the results depend on the processing

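No paired analysis was possible because NT and IL-4 cells gave 1 library apiece, and no replicate could be left out. Of 117 comparisons of a member with an alternative, 108 kept their direction and their side of the threshold. The main limit is the unknown spread between samples. With an assumed coefficient of variation of 0.4 the edgeR exact test called 0 members higher and 0 lower (65 genes higher and 8 lower in all), so Tlr2 (-2.02), Tlr8 (1.75), Tlr9 (-0.92) and Tlr13 (-2.05) lost their calls. Before adjustment 3 members, Tlr2 (p = 0.0212), Tlr8 (0.0410) and Tlr13 (0.0177), and 293 genes in all were below 0.05 in that exact test. It then called 0 accessory genes in either direction, 0 signalling genes lower, 1 inhibitor higher, 0 response genes in either direction and 0 other TIR receptors. With 0.2 assumed, Tlr9 (-0.92) was lost, 390 genes were higher and 423 lower, with 0 accessory genes higher and 1 signalling gene lower.

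Tlr9 was also lost with FPKM plus 1 (-0.53; 391 genes higher, 399 lower, 1 signalling gene lower) and when the limit was raised to 1 (-0.92; 408 higher, 476 lower, 0 accessory genes higher and 1 signalling gene lower). With the length trend subtracted, Tlr3 (0.058) and Tlr4 (0.40) turned positive without a call, and Ctss (-0.066) turned negative. Signalling genes called lower were then 1, inhibitors called lower 1, and the median of response genes was -0.20. It was -0.18 over genes with at least 10 counts, where the median of the other TIR receptors turned from -0.80 to 0.43. A fold change over 1.5 called 1 adaptor (Tirap) lower, 4 inhibitors lower and 2 other TIR receptors higher. Without the 100 most abundant genes in the total, 1 accessory gene was higher. A higher limit or assumed spread calls fewer genes by construction, and for the other shifts the cause was not tested.

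TMM moved all ratios by 0.0368, more than the other scalings did. Of 377 comparisons of a named pathway gene, 341 kept call and direction, 34 lost and 1 gained a call, and 1 turned direction. Irak2 lost its call under TMM (-0.72) and DESeq2 scaling (-0.73), Ccl3 under TMM (-0.74), and Traf3 with FPKM plus 1 (-0.66) and with length (-0.38). Depth limits Tlr5 and leaves Tlr9 uncertain.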

Other observations

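Sensors of nucleic acids and peptidoglycan in the cytosol, together with genes that act with them such as Ripk2, Mavs and Sting1, give a counterpart to the endosomal receptors. This list was chosen after the data were seen. Of 11 tested, 2 were higher, 1 was lower and 8 were not called, with a median log2 ratio of -0.01. Over all genes tested, 10.4% were called, 4.07% as higher and 6.28% as lower. Zbp1, a sensor of Z-form nucleic acids, had 122 counts in NT cells and 347 in IL-4 cells, a log2 ratio of 1.48 (95% interval, 1.18 to 1.79). Ripk2, the kinase that acts below Nod1 and Nod2, had 116 and 291 counts, a log2 ratio of 1.30 (interval, 0.98 to 1.62). Nod2 had 42 and 22 counts, and its log2 ratio of -0.95 had an interval from -1.78 to -0.18. The RNA helicase sensors were not called. Ddx58 (RIG-I) had 334.76 and 341.32 counts, Ifih1 (MDA5) had 411 and 397, and Dhx58 had 273 and 276. Cgas, the cytosolic DNA sensor, had 102.22 and 76.08 counts, and its partner Sting1 had 340 and 393.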
